A study of Mus musculus with 6 samples.

Results

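The 9 genes described here encode the light chains of myosin, the kinases that phosphorylate the regulatory light chain, and a subunit of the phosphatase that removes the phosphate. They were taken by name from the deposited table of 14133 genes, and all 9 were present: Myl2 and Myl3 (ventricular light chains), Myl4 and Myl7 (atrial light chains), Myl9 (a light chain of smooth muscle and non-muscle cells), Mylk, Mylk3 and Mylk4 (kinases) and Ppp1r12b (phosphatase subunit). Heart RNA of C57BL/6 mice aged 1 month was sequenced. The hearts labelled knockout carried floxed Trx1 alleles (flox/flox) with MHC-Cre, a Cre recombinase driven by the Myh6 promoter, which is active in cardiomyocytes (n = 3, replicates 6, 7 and 8). The control hearts carried the same flox/flox alleles without Cre (n = 3, replicates 3, 4 and 5). The controls carry no Cre, so an effect of Cre itself and an effect of losing Trx1 cannot be told apart. The labels do not say whether replicates are different animals, so p-values reflect only the variation among these libraries, which may be technical.

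Each myosin head carries 1 essential and 1 regulatory light chain around its lever arm. In ventricular cardiomyocytes these are Myl3 and Myl2, and in atrial cardiomyocytes Myl4 and Myl7. Phosphorylation of Myl2 by the cardiac kinase Mylk3 increases the force of contraction, and myosin phosphatase, a complex of a catalytic subunit with a targeting subunit such as Ppp1r12b, reverses it. In smooth muscle the calmodulin-dependent kinase Mylk phosphorylates Myl9 and so starts contraction.

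The targeted gene, Txn1 (named Trx1 in the labels), had 6.95, 6.90 and 7.13 log2 CPM in replicates 6, 7 and 8 labelled knockout, against 6.64, 7.0 and 7.04 log2 CPM in control replicates 3, 4 and 5. CPM is the read count scaled to a common library size, and 1 unit on the log2 scale is a 2-fold difference. The log2 difference of Txn1, labelled knockout minus control, was 0.10 (limma adjusted p = 0.72, with a 95% confidence interval of -0.22 to 0.42). Without control replicate 3 it was -0.025. Since the value does not set the groups apart, the first group is called labelled knockout throughout. Whether loss of the floxed exons would lower this gene count cannot be read from these values. Reads recovered by gene summed to 8347636 to 10236783 per library labelled knockout and 9257984 to 13705281 per control library. CPM summed to 921199 to 1001288 in the libraries labelled knockout and 1017500 to 1044059 in the controls. Heart muscle RNA was present in every library: the summed level of 14 cardiomyocyte sarcomere and calcium genes was 105795 to 139866 CPM in the libraries labelled knockout and 161626 to 178285 CPM in the controls.

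The sequences just upstream of Myl3, Myl7 and Mylk4 show the promoters of the ventricular light chain gene, the atrial light chain gene and the kinase gene that the results turn on. Each line gives the 250 bases before the RefSeq start site (GRCm38.p6), 5′ to 3′ on the strand of the gene. The Myl3 bases are chr9:110763428-110763677 on the plus strand, the Myl7 bases chr11:5898783-5899032 on the minus strand and the Mylk4 bases chr13:32783965-32784214 on the minus strand. The RefSeq start lay 32, 0 and 10 bases from a GENCODE M21 transcript start of Myl3, Myl7 and Mylk4. For Mylk4 the start of a GENCODE transcript matched to a RefSeq NM entry lay 2248 bases away. Capitals mark matches, on either strand, to a GATA motif (GATAA or GATAG), the MCAT motif (CATTCC), the CArG box of serum response factor or the MEF2 motif. None of the marked matches overlap.
Myl3: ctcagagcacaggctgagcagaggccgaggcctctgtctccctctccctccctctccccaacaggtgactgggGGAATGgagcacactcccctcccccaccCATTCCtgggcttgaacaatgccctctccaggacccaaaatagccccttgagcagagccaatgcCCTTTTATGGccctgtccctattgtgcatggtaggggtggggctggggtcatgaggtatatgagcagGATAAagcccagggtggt
Myl7: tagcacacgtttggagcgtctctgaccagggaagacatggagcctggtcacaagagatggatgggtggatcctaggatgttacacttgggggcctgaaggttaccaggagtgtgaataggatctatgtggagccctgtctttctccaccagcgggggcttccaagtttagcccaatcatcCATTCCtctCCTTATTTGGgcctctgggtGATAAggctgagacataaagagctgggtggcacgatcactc
Mylk4: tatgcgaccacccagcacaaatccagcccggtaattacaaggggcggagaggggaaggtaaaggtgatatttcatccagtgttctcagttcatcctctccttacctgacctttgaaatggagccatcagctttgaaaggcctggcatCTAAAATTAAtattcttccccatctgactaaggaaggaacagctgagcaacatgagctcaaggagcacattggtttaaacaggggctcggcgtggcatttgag

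The windows of Myl3 and Myl7 each held a CArG box, at 85 and 61 bases before the start, beside an MCAT motif and a GATA motif. The Mylk4 window held a MEF2 motif at 103 bases before the start and none of the others. Of the windows not shown, that of Myl4 held none of these motifs. The Myl9 window held a CArG box at 161 bases before the start and none of the others. Over 32851 windows of the same length, 1.47% held a CArG box, 1.69% a MEF2 motif, 12.6% an MCAT motif and 37.4% a GATA motif. These matches describe the letters of the windows and were not tested against the RNA levels. The 2 windows listed for Myl2 end 8227 and 7762 bases from the GENCODE start of that gene and are not shown.

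RNA of Mylk4 and Myl7 was lower in hearts labelled knockout, by 7.07-fold and 5.78-fold. The ventricular chains Myl2 and Myl3 lay 1.53-fold and 1.55-fold lower and the atrial chain Myl4 3.56-fold lower, with adjusted p-values of 0.069, 0.051 and 0.057, above the threshold of 0.05. Myl9 was 1.44-fold higher, also not past the threshold, while the cardiac kinase Mylk3 was 1.10-fold higher and Mylk and Ppp1r12b 1.11-fold and 1.18-fold lower. Of the 9 genes, 2 fell and 0 rose at an adjusted p under 0.05 (limma with an intensity trend, Benjamini-Hochberg over 12516 tested genes). Over all tested genes 4.87% fell and 4.79% rose by the same test. At an unadjusted p under 0.05 there were 6 of the 9 genes, beside 24.8% of all tested genes, and limma-voom on recovered reads called 5 of the 9 lower (Myl2, Myl3, Myl4, Myl7 and Mylk4), beside 5.18% of all. The same 5 were called lower with library weights (beside 6.33% of all) and without replicate 8 (9.39%), and 0 of the 9 without an intensity trend (0.399%). The median log2 fold change was -0.61 over the 9 genes and -0.01 over all tested genes. All values lay wholly below the controls in 4 of the 9 genes (16.2% of all tested genes) and wholly above them in 1 (14.4%).

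**Figure D1:**
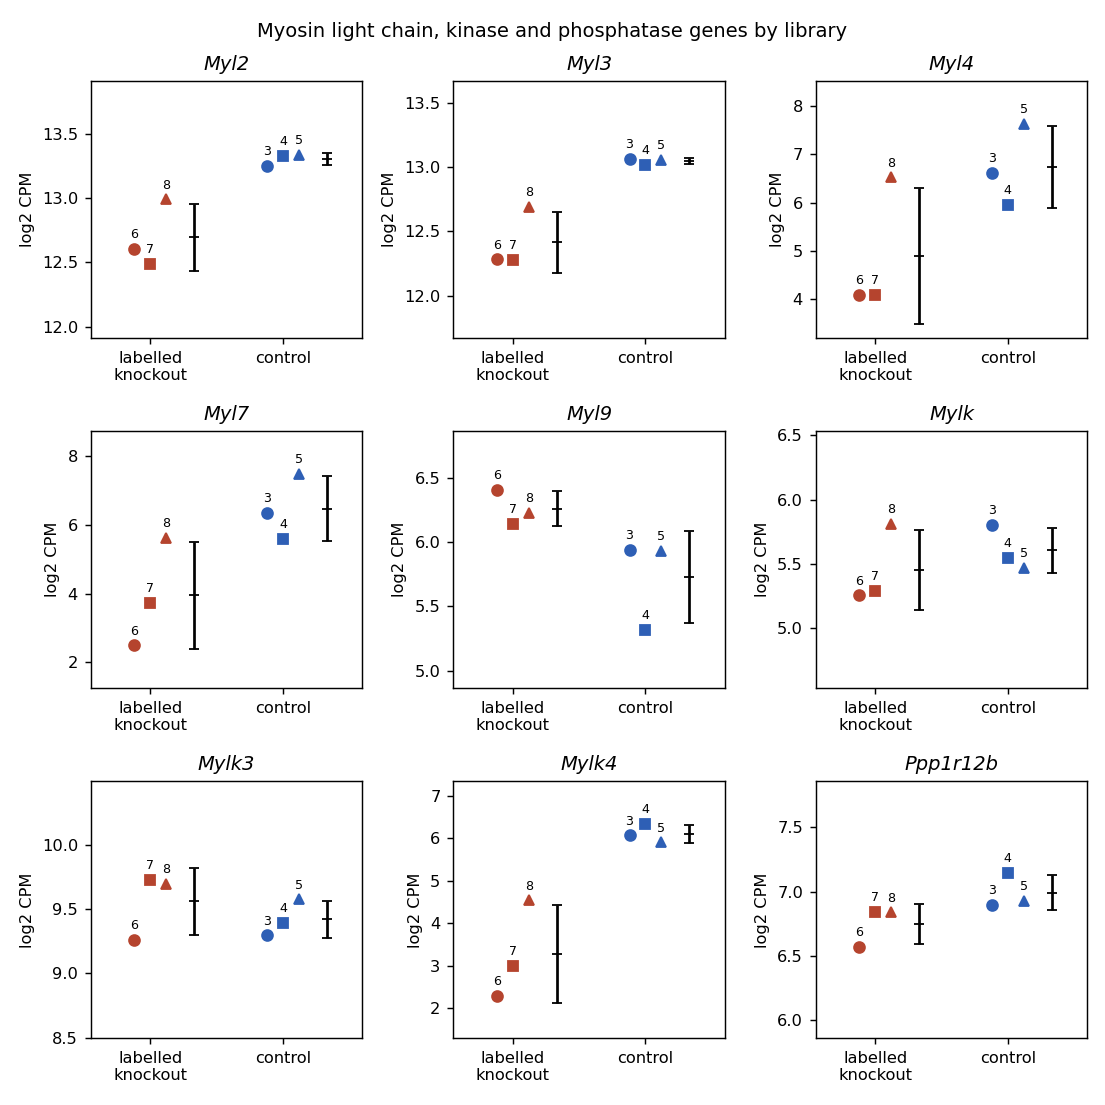
Level of each of the 9 genes in each library, in log2 CPM, with labelled knockout left and control right; numbers are the replicates, and bars show the mean and SD of 3 libraries. Replicate 8 is the library labelled knockout that lies nearest to the controls for Myl2, Myl3, Myl4, Myl7 and Mylk4.

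Among the ventricular light chains, Myl2 was the ninth most abundant and Myl3 the eleventh most abundant RNA of the table by mean log2 CPM. Myl2, the ventricular regulatory light chain (chromosome 5, 122100951 to 122113472, GRCm38), had 12.61, 12.49 and 12.99 log2 CPM in replicates 6, 7 and 8 labelled knockout, against 13.25, 13.33 and 13.33 log2 CPM in control replicates 3, 4 and 5. The groups did not overlap, and replicate 8 was the nearest to the controls. The log2 fold change of Myl2 was -0.61 ± 0.20 (SE), with a limma adjusted p of 0.069. Myl3, the ventricular essential light chain (chromosome 9, 110741861 to 110769798), had 12.28, 12.28 and 12.69 log2 CPM in replicates 6, 7 and 8, against 13.06, 13.02 and 13.06 log2 CPM in control replicates 3, 4 and 5. The 3 control values of Myl3 lay within a narrow band, and all 3 values labelled knockout lay below it. Its log2 fold change was -0.63 ± 0.19 (SE, limma adjusted p = 0.051), and the 95% confidence interval was -1.03 to -0.23.

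Whether these chains passed turned on replicate 8 and on how the spread was modelled. Without replicate 8 the log2 fold changes of Myl2 and Myl3 were -0.76 and -0.77 (limma adjusted p = 0.00033 and 0.00023), and with limma-voom on recovered reads the adjusted p-values were 0.020 and 0.015. With any other library left out neither passed (limma adjusted p = 0.12 to 0.26 for Myl2 and 0.094 to 0.20 for Myl3). Without an intensity trend the adjusted p-values of Myl2 and Myl3 were 0.12 and 0.11. After quantile normalization the log2 fold change of Myl2 was -0.21, and that of Myl3 -0.41 (limma adjusted p = 0.48 and 0.20).

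Some other genes of the cardiomyocyte moved beside them. Of 14 sarcomere and calcium genes, 5 fell and 0 rose, leaving 9 that did not pass, with a median log2 fold change of -0.32. Tcap, titin-cap, fell by 1.17 on the log2 scale, Tnni3, cardiac troponin I, by 1.01, Atp2a2, the calcium pump of the sarcoplasmic reticulum, by 0.92, and Ttn, titin, and Ryr2, the calcium release channel, each by 0.67. Actc1, cardiac actin, stood at -0.29 (log2 fold change, limma adjusted p = 0.46). Myh6, a cardiac myosin heavy chain, stood at -0.68 (adjusted p = 0.18) and Tnnt2, cardiac troponin T, at 0.05 (adjusted p = 0.91). Of the 14 log2 fold changes, 12 were below 0 and 2 above 0. The calls of Atp2a2, Ttn and Ryr2 ended without control replicate 3, 4 or 5 or replicate 6 (limma adjusted p = 0.068 to 0.22), that of Atp2a2 also without replicate 7 (0.11), and that of Tnni3 without control replicate 5 (0.060). After quantile normalization Atp2a2 stood at -0.63 (adjusted p = 0.12) and Ttn at -0.44 (0.12). Of 6 ventricular markers, 2 fell and 0 rose, and they were Fhl2, a sarcomere-associated LIM protein (-1.25 ± 0.14, log2 fold change and SE), and Pln, phospholamban (-0.74 ± 0.19). The call of Pln ended when any library but replicate 8 was left out (limma adjusted p = 0.060 to 0.14). In RNA from heart tissue, fewer cells of a type and less RNA per cell cannot be told apart.

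The atrial light chains were the most variable of the 9 genes. Myl7, the atrial regulatory light chain (chromosome 11, 5896637 to 5898782), had 2.50, 3.74 and 5.62 log2 CPM in replicates 6, 7 and 8 labelled knockout, against 6.37, 5.59 and 7.49 log2 CPM in control replicates 3, 4 and 5. Replicate 8 lay just above control replicate 4, so the groups overlapped, while replicates 6 and 7 lay below every control. In recovered reads this was 54, 136 and 420 reads in replicates 6, 7 and 8, against 1112, 434 and 1775 reads in control replicates 3, 4 and 5. Myl7 averaged 3.95 ± 1.57 log2 CPM in hearts labelled knockout and 6.48 ± 0.95 log2 CPM in controls (SD, n = 3 each). Its log2 fold change was -2.53 ± 0.62 (SE, limma adjusted p = 0.023), the 23rd lowest of the 12516 tested genes.

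Myl4, the atrial essential light chain (chromosome 11, 104550663 to 104595753), had 4.08, 4.10 and 6.52 log2 CPM in replicates 6, 7 and 8, against 6.62, 5.95 and 7.63 log2 CPM in control replicates 3, 4 and 5. Its groups overlapped in the same way, with replicate 8 above control replicate 4 and close to control replicate 3. The log2 fold change was -1.83 ± 0.55 (SE, limma adjusted p = 0.057). Within each group the libraries came in the same order for both atrial chains: replicate 8 was the highest of those labelled knockout and control replicate 5 the highest of the controls.

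The Myl7 call ended when any of 4 libraries was left out, while its direction held. The log2 fold change was -2.59 without control replicate 3, -2.03 without control replicate 5, -1.80 without replicate 6 and -2.43 without replicate 7 (limma adjusted p = 0.066, 0.14, 0.075 and 0.075). It also missed the threshold with a robust trend (0.21) or no trend (0.15). Myl4 stood at -1.38 without control replicate 5 and at -1.42 and -1.43 without replicates 6 and 7 (limma adjusted p = 0.25, 0.18 and 0.19). With a robust trend or no trend the limma adjusted p of Myl4 was 0.29 or 0.22. Without replicate 8 the log2 fold changes of Myl7 and Myl4 were -3.36 and -2.64 (limma adjusted p = 0.00027 and 0.00023).

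The genes nearest to Myl7 in pattern, by the root mean square difference of mean-centred log2 CPM over the 6 libraries, were Myl4 (0.50), Lad1, the gene of ladinin (0.60), and Mybphl, a myosin-binding protein gene of the atria and conduction system (0.68). Mybphl had 1.11, 1.86 and 4.12 log2 CPM in replicates 6, 7 and 8, against 3.68, 2.66 and 4.41 log2 CPM in control replicates 3, 4 and 5. Mybphl was named for its likeness to Myl7 in these libraries, and it did not pass the test (log2 fold change -1.22 ± 0.65, SE, limma adjusted p = 0.27). Sln, sarcolipin, an atrial regulator of the calcium pump, had -0.48, -0.54 and 1.21 log2 CPM in replicates 6, 7 and 8, against 2.01, -0.01 and 2.96 log2 CPM in control replicates 3, 4 and 5 (log2 fold change -1.59 ± 0.79, SE, limma adjusted p = 0.24). Sln was picked after its values were seen.

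The atrial markers as a list did not move 1 way. Of 8 markers 7 were in the table and tested, 2 rose and 1 fell, leaving 4 that did not pass, with a median log2 fold change of -0.06. Nppa, atrial natriuretic peptide, rose by 5.23 ± 0.44 and Dkk3, a secreted glycoprotein, by 1.23 ± 0.31 (log2 fold change and SE), while Kcnj3 (a channel subunit that lets potassium through after muscarinic stimulation) fell by 2.48 on the log2 scale. The Dkk3 call ended without control replicate 4 (0.81, limma adjusted p = 0.086), control replicate 5 (0.071), replicate 6 (0.061) or replicate 7 (0.092). Replicate 8 was the highest library labelled knockout in 3 of the 7 markers and control replicate 5 the highest control in 3, and both held in 1, Sln. The summed level of the 7 genes was 6329 to 22826 CPM in hearts labelled knockout and 309 to 747 CPM in controls, most of it Nppa, and none of the 7 lay at the floor of the table. How much atrial tissue each library held is not given in the labels, and its part in the Myl4 and Myl7 values was not tested.

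**Figure D2:**
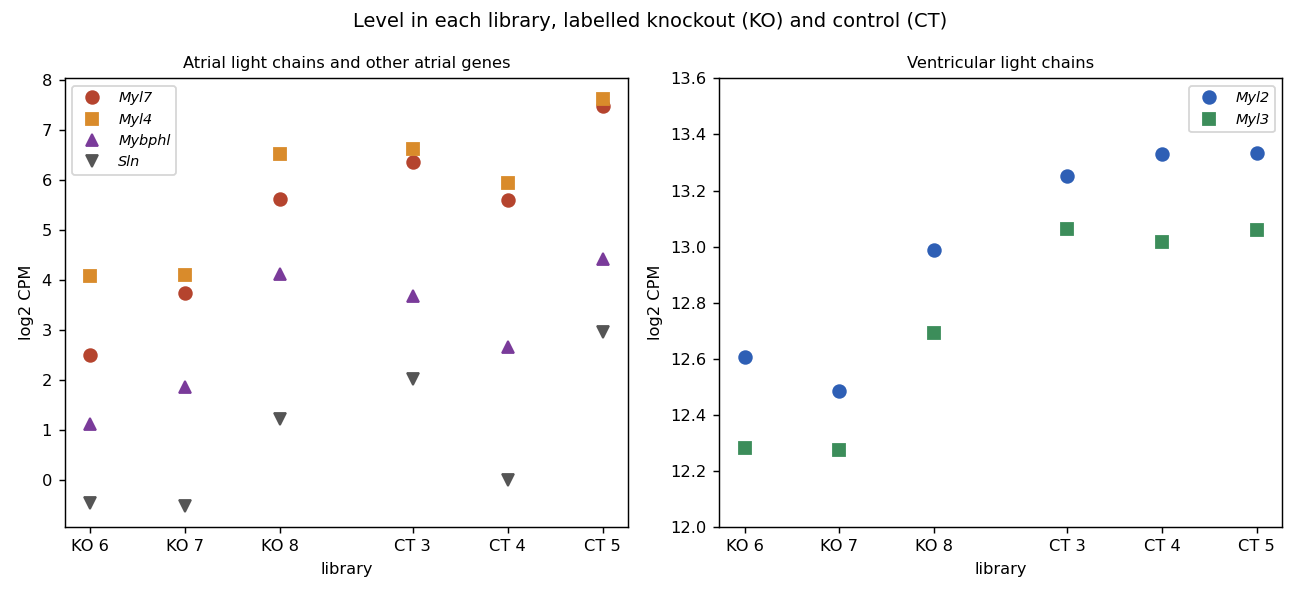
Level in log2 CPM in each library, labelled knockout (KO) left and control (CT) right, for the atrial light chains with Mybphl and Sln (left panel) and the ventricular light chains (right panel, axis cut at 12). Replicate 8 and control replicate 5 are the highest of their groups in the 4 genes of the left panel. Of these, Mybphl was chosen for its likeness to Myl7 and Sln after its values were seen. Among the 7 tested atrial markers, replicate 8 and control replicate 5 were both highest in 1, Sln. The ventricular chains separate the groups without overlap.

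The ratio of atrial to ventricular chains within a library does not depend on the scaling of libraries. Myl7 over Myl2 was -10.11, -8.74 and -7.37 on the log2 scale in replicates 6, 7 and 8, against -6.89, -7.73 and -5.85 in control replicates 3, 4 and 5. The difference was -1.92, the groups overlapped, with p = 0.2 by exact permutation (two-sided), where 3 against 3 allows no p below 0.1. Myl4 over Myl3 averaged -7.52 ± 1.17 in hearts labelled knockout and -6.31 ± 0.83 in controls (log2 ratio, SD, n = 3 each, exact permutation p = 0.3). Both ratios were lower by more than 1 log2 unit, within the spread of the libraries. Over the 6 ratios computed between members, Benjamini-Hochberg adjustment of the exact permutation p-values gave 0.3 to 0.7, so none passed.

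Myl9, the regulatory light chain of smooth muscle (chromosome 2, 156775420 to 156781658), was the 1 member with every value labelled knockout above the controls. It had 6.41, 6.14 and 6.23 log2 CPM in replicates 6, 7 and 8, against 5.94, 5.32 and 5.93 log2 CPM in control replicates 3, 4 and 5. Control replicate 4 was the lowest, and without it the log2 fold change was 0.32, against 0.53 ± 0.18 (SE, limma adjusted p = 0.092) with all libraries. Of 8 smooth muscle markers, 1 fell and 0 rose, leaving 7 that did not pass, with a median log2 fold change of 0.09. Their summed level was 1165 to 1749 CPM in hearts labelled knockout and 978 to 1253 CPM in controls. Acta2, smooth muscle actin, which activated fibroblasts also express, stood at 0.74 ± 0.22 (log2 fold change and SE, limma adjusted p = 0.057). Myh11, smooth muscle myosin, stood at -0.37 ± 0.27 (adjusted p = 0.44), and Smtn, smoothelin, fell by 0.99 (adjusted p = 0.0064). Of 8 fibroblast markers 5 rose and 0 fell, with a median of 1.18 and a summed level of 2734 to 7449 CPM in hearts labelled knockout and 1506 to 1937 CPM in controls. The part of smooth muscle cells and fibroblasts in the Myl9 values was not tested.

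Among the kinases, Mylk4 stood lowest against the controls, with the 16th lowest log2 fold change of the 12516 tested genes. Mylk4 encodes a member of the myosin light chain kinase family expressed in heart and skeletal muscle (chromosome 13, 32700834 to 32783954). It had 2.30, 3.00 and 4.54 log2 CPM in replicates 6, 7 and 8 labelled knockout, against 6.07, 6.34 and 5.91 log2 CPM in control replicates 3, 4 and 5. Every value labelled knockout lay more than 1 log2 unit below the lowest control, and replicate 8 was again the nearest. Recovered reads were 47, 81 and 199 in replicates 6, 7 and 8, against 905, 727 and 592 in control replicates 3, 4 and 5. The log2 fold change was -2.82 ± 0.42 (SE, 95% confidence interval -3.73 to -1.91, limma adjusted p = 0.0019). With any 1 library left out it stayed between -3.45 and -2.33 (adjusted p up to 0.018), and without a trend in the variance it did not pass (adjusted p = 0.063).

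Mylk3, the cardiac myosin light chain kinase (chromosome 8, 85324303 to 85386345), had 9.26, 9.73 and 9.69 log2 CPM in replicates 6, 7 and 8, against 9.30, 9.39 and 9.58 log2 CPM in control replicates 3, 4 and 5. The groups overlapped, and the log2 fold change was 0.14 ± 0.15 (SE, 95% confidence interval -0.19 to 0.47, limma adjusted p = 0.62). Mylk, the kinase of smooth muscle and non-muscle cells (chromosome 16, 34745210 to 35002420), had 5.25, 5.29 and 5.81 log2 CPM in replicates 6, 7 and 8, against 5.80, 5.55 and 5.47 log2 CPM in control replicates 3, 4 and 5. These groups overlapped as well (log2 fold change -0.15 ± 0.19, SE, 95% confidence interval -0.56 to 0.25, limma adjusted p = 0.66). Mylk4 over Mylk3 was -6.96, -6.72 and -5.15 on the log2 scale in replicates 6, 7 and 8, against -3.23, -3.05 and -3.67 in control replicates 3, 4 and 5. This ratio differed by -2.96 without overlap (exact two-sided permutation p = 0.1, the smallest p that 3 against 3 allows).

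Mylk2, the skeletal muscle kinase of the family, lay below the filter of a mean of 0 log2 CPM and is named after its values were seen. It had 26, 36 and 17 recovered reads in replicates 6, 7 and 8, against 3, 0 and 5 reads in control replicates 3, 4 and 5. All 3 libraries labelled knockout lay above the controls, and limma without the filter gave an adjusted p of 0.030. Of 10 skeletal muscle markers, 7 were in the table and 3 tested, of which 1 rose, and 4 of the 7 lay at the floor in some library. Their summed level was 37.9 to 61.9 CPM in hearts labelled knockout and 34.5 to 54.0 CPM in controls.

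**Figure D3:**
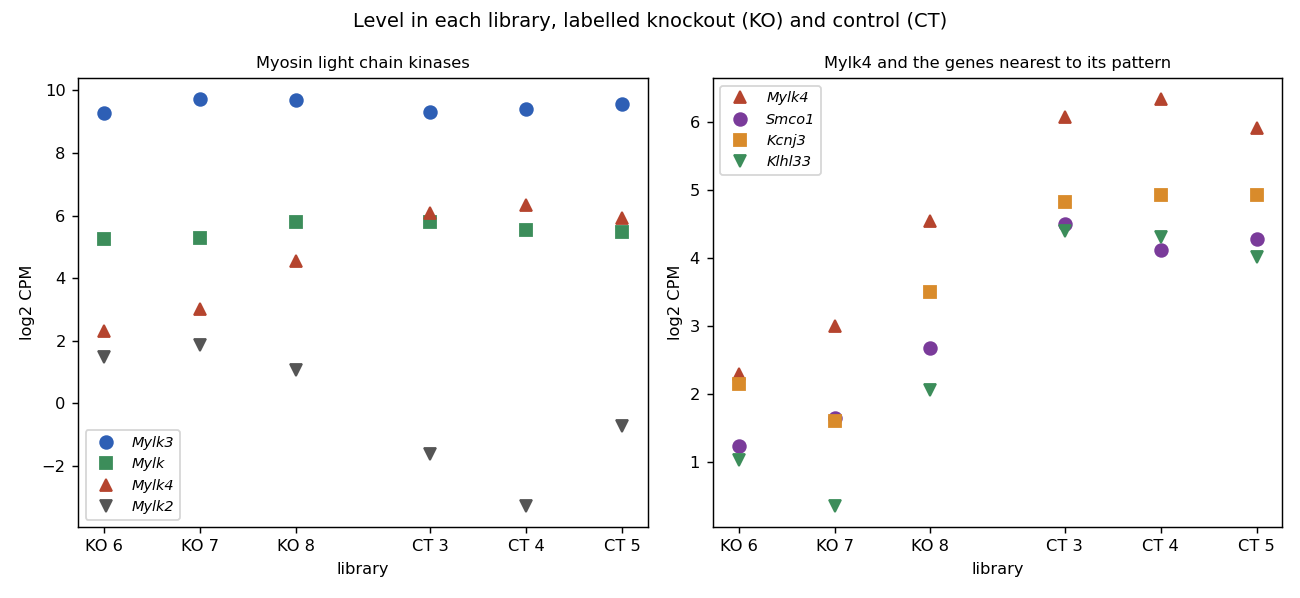
Level in log2 CPM in each library, labelled knockout (KO) left and control (CT) right, for the 4 myosin light chain kinase genes (left panel) and for Mylk4 with the 3 genes nearest to its pattern (right panel). Mylk4 is 2.30 to 4.54 in hearts labelled knockout and 5.91 to 6.34 in controls, while Mylk3 and Mylk overlap between the groups; the Mylk2 value of control replicate 4 is the floor of the table.

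The 3 genes nearest to Mylk4 in pattern were Smco1, a gene of a membrane protein with a coiled coil, Kcnj3 and Klhl33, a gene of the Kelch-like family (root mean square differences of 0.36, 0.43 and 0.47 log2 units over 6 libraries). Their log2 fold changes were -2.45 ± 0.36, -2.48 ± 0.39 and -3.09 ± 0.41 (SE), with limma adjusted p-values of 0.0019, 0.0026 and 0.0012. Since they were chosen for likeness to Mylk4 over the same libraries, these values are a description.

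Ppp1r12b, the targeting subunit of myosin phosphatase in striated muscle (chromosome 1, 134754658 to 134955942), had 6.57, 6.84 and 6.84 log2 CPM in replicates 6, 7 and 8, against 6.90, 7.15 and 6.93 log2 CPM in control replicates 3, 4 and 5. The groups did not overlap, with replicate 7 at 6.84 just below control replicate 3 at 6.90. The log2 fold change was -0.24 ± 0.14 (SE, 95% confidence interval -0.55 to 0.06, limma adjusted p = 0.32). Mylk3 over Ppp1r12b, the cardiac kinase against the phosphatase subunit, was 2.69, 2.89 and 2.85 on the log2 scale in replicates 6, 7 and 8, against 2.40, 2.25 and 2.65 in control replicates 3, 4 and 5. It was higher in all 3 libraries labelled knockout, by 0.38 (exact two-sided permutation p = 0.1, the smallest p possible here). Mylk over Ppp1r12b differed by 0.09 (p = 0.7 in the same exact test). Annotated genes on the opposite strand lie over exons of Myl4, Mylk and Ppp1r12b, and no source used here says whether counting used strand, so their reads cannot be told apart.

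Per kilobase of transcript, the light chains of the ventricle exceeded the other members by far. Myl2 averaged 10122 ± 1910 CPM per kilobase in hearts labelled knockout and 15296 ± 477 in controls, and Myl3 averaged 5889 ± 1013 in hearts labelled knockout and 9030 ± 160 in controls (mean level, SD, n = 3 each). Mylk3 came next, with 226.7 ± 38.3 CPM per kilobase in hearts labelled knockout and 204.3 ± 20.4 in controls. In controls the next means were those of Myl7 (175 ± 115) and Myl4 (131 ± 77.9 CPM per kilobase). Both varied widely across libraries, and their order against Mylk3 or each other within libraries was not tested. In hearts labelled knockout the next means were those of Myl9 (68.1 ± 6.52), Myl4 (46.1 ± 47.6), Myl7 (38.3 ± 39.3) and Ppp1r12b (34.4 ± 3.59 CPM per kilobase). The SDs of Myl4 and Myl7 exceeded their means, and the order of these genes within libraries was not tested. Mylk4 was at 2.15 ± 1.77 CPM per kilobase in hearts labelled knockout and 12.4 ± 1.91 in controls, and Mylk at 5.67 ± 1.28 in hearts labelled knockout and 6.23 ± 0.77 in controls. Mylk4 lay below Mylk in hearts labelled knockout and above it in controls. The lengths are those of GENCODE transcripts matched to RefSeq NM entries, and isoform use within a gene was not measured.

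No other light chain gene passed the test. Of 7 other myosin light chain genes, 6 were in the table and 5 tested, and 0 rose and 0 fell by limma and the Benjamini-Hochberg adjustment, with 1 at an unadjusted p under 0.05 and a median log2 fold change of 0.25. That was Myl12a, a regulatory light chain of non-muscle myosin, with 0.37 ± 0.16 (SE, adjusted p = 0.17), whose reads are hard to separate from those of the near-identical Myl12b (0.22 ± 0.16). Myl6, the essential light chain of smooth and non-muscle myosin, had 0.25 ± 0.17 (adjusted p = 0.37). Limma-voom called 0 of these 5 genes.

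Of 10 other subunits and inhibitors of myosin phosphatase, all tested, 0 rose and 0 fell by limma, 3 had an unadjusted p under 0.05, and the median log2 fold change was 0.05. Limma-voom called 0 of the 10. Ppp1r12a and Ppp1r12c, which encode the other targeting subunits of the family, had 0.39 ± 0.14 and 0.40 ± 0.16 (log2 fold change and SE, adjusted p = 0.097 and 0.14), each with no overlap between the groups. Ppp1r14c, a gene of a phosphatase inhibitor, had -0.31 ± 0.13 (adjusted p = 0.16), and Ppp1ca, a catalytic subunit, 0.04 ± 0.12 (adjusted p = 0.87). Ppp1r12a and Ppp1r12c lay above the controls and Ppp1r12b below them, with none of the 3 past the test.

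**Figure D4:**
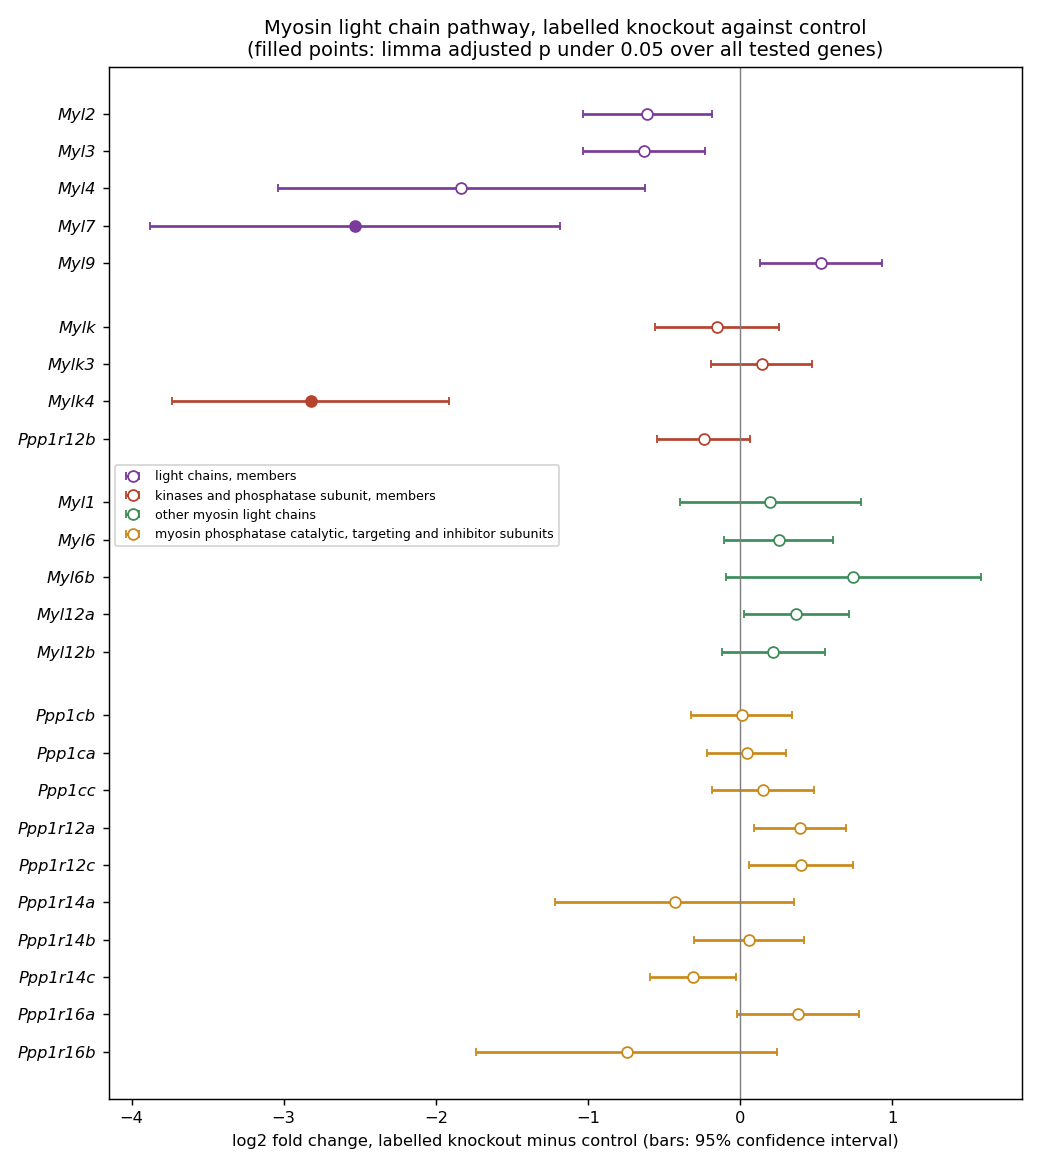
Log2 fold change of labelled knockout minus control with its 95% confidence interval (limma) for the 9 genes and the tested genes of the lists of other light chains and of phosphatase subunits and inhibitors; filled points passed an adjusted p under 0.05. Filled are Myl7 and Mylk4, both below 0.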

How the data were processed

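Total RNA was extracted with TRIzol from mouse heart for 6 libraries and sequenced with Illumina protocols, per the labels. The deposited table holds log2 CPM values of 14133 genes, with 1 column per library, per the file headers. The submitters' processing notes name the build mm10 and the tools edgeR, HISAT2 and CASAVA, with no version and no role for any of them. The deposited values share a floor of -3.29 log2 CPM. Steps above it gave reads per gene, whole within 0.002 reads in 99.9% or more of 7462 genes with 1 RefSeq NM transcript. Some values of genes with several transcripts hold fractions of a read. No member shared its values with another gene.

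Genes averaging 0 log2 CPM or more were tested with limma 3.58.1 in R 4.3.3, on the deposited log2 values, with a group-means model, an intensity trend, a two-sided test and Benjamini-Hochberg adjustment over 12516 genes. "Rose" and "fell" mean an adjusted p under 0.05. Fold changes are labelled knockout minus control, with the SE of the fit. Ratios within libraries were tested by exact permutation in scipy 1.17.1. The fit was checked on simulated data. The members and lists were chosen with earlier results of these data known. A list of further kinase pathway genes is not reported here. The rule for genes named beside the 9 took the called genes of the pathway lists, up to 4 of the most abundant genes of each list and the 3 nearest patterns, and not every gene it gave is printed. Sln, Tcap, Tnni3, Ttn, Ryr2, Mylk2, Ppp1r14c and the chromosomal neighbours are outside it and were picked after their values were seen. Alternatives were the filter, scaling, pseudocount, variance model, threshold, limma-voom on recovered reads and each library left out. Upstream windows are from RefSeq, where all 9 genes had an entry, and gene coordinates are from GENCODE M21, both on GRCm38, the assembly of mm10.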

Additional observations from a re-analysis of the deposited data

How the results depend on the processing

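The number of the 9 genes that fell was 2 (Myl7 and Mylk4). It was 3 when only genes averaging 3 log2 CPM or more were kept (Myl3 added) and with a robust trend (Myl2, Myl3 and Mylk4), 5 with library weights and 5 with limma-voom on recovered reads (Myl2, Myl3, Myl4, Myl7 and Mylk4), 1 at an adjusted p under 0.01 (Mylk4) and 0 without an intensity trend. With 1 library left out it ranged from 1 to 5: it was 5 without replicate 8 and 1 (Mylk4) without control replicate 3 or 5 or replicate 6 or 7. No member rose under any alternative, and no member changed direction. Under each alternative run the ratios between members moved by less than 1 pooled SD (the root of the mean of both groups' variances). Leaving out 1 library gave -2.60 to -1.24 for Myl7 over Myl2, -1.88 to -0.76 for Myl4 over Myl3 and -3.53 to -2.62 for Mylk4 over Mylk3. Mylk over Ppp1r12b crossed 0, with a range of -0.05 to 0.23. Txn1 ranged from -0.025 (without control replicate 3, a change of sign) to 0.18. No paired analysis was possible because the groups share no replicate numbers. Few reads lie behind Mylk2, Sln and Serpinb1c, so depth limits their values.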

Other observations

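Of 8 tested endothelial markers 0 rose and 1 fell (median log2 fold change -0.26), and of 7 pericyte markers 1 rose and 1 fell (-0.20). Of 8 macrophage markers and 3 tested erythroid markers 0 rose and 0 fell by limma and by limma-voom, with 2 and 0 at an unadjusted p under 0.05 (medians 0.19 and -0.17).

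The genes beside Mylk4 on chromosome 13 were picked after their values were seen. Of the 10 tested genes next to it (5 on either side), 2 rose and 1 fell. The gene that fell was Uqcrfs1, a subunit of respiratory complex III 2155 kb away, which averaged 9.55 ± 0.29 log2 CPM in hearts labelled knockout and 10.29 ± 0.06 log2 CPM in controls (log2 fold change -0.74, limma adjusted p = 0.011). Its call ended without control replicate 3, 4 or 5 (adjusted p = 0.055, 0.064 and 0.080). Wrnip1, 18.1 kb from Mylk4, averaged 5.32 ± 0.18 log2 CPM in hearts labelled knockout and 5.73 ± 0.12 log2 CPM in controls (SD, n = 3 each, log2 fold change -0.41 ± 0.16, SE, limma adjusted p = 0.13). Farther along lie serine protease inhibitor genes, of which 4 were among these 10 neighbours, and 2 of the 4 rose. Serpinb6b, 181 kb away, averaged 6.39 ± 0.48 log2 CPM in hearts labelled knockout and 4.89 ± 0.12 log2 CPM in controls, and rose by 1.5 ± 0.22 (log2 fold change and SE, limma adjusted p = 0.0017, 0.056 without an intensity trend). Serpinb1c, 97.5 kb away, averaged 2.44 ± 1.34 log2 CPM in hearts labelled knockout and -1.22 ± 1.95 log2 CPM in controls, and rose by 3.66 ± 0.96 (limma adjusted p = 0.032). That call ended without control replicate 4 or 5 or replicate 6 or 7 (adjusted p = 0.10, 0.096, 0.12 and 0.14). Serpinb1a (0.53, adjusted p = 0.29) and Serpinb9 (0.33, adjusted p = 0.42) did not pass. Serpinb genes are similar in sequence, so their reads are hard to separate.

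Near Myl7 on chromosome 11, Aebp1, a gene of a matrix-associated protein 24.5 kb away, averaged 5.83 ± 0.37 log2 CPM in hearts labelled knockout and 4.81 ± 0.14 log2 CPM in controls, and rose by 1.02 ± 0.20 (log2 fold change and SE, limma adjusted p = 0.0077). Without control replicate 5 its adjusted p was 0.055. Of the 5 tested genes on either side of Myl7, Aebp1 alone passed the test.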
